A study of Homo sapiens with 6 samples.

Results

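The 47 genes described here encode proteins of the cytosolic ribosome, 27 of its large subunit (RPL and RPLP genes) and 20 of its small subunit (RPS genes). They were taken by symbol from a table of 56303 gene entries, and every one of the 47 was found. The rule is a list of symbols and uses no measured value, but the list was drawn up with earlier results of these data known. RNA-seq read counts were compared between 3 libraries of AGS cells given siRNA against the splicing factor SRSF2 (siSRSF2) and 3 libraries of the same line labelled wild type (WT). AGS is an established human gastric cancer cell line, although the labels also call the source gastric cancer tissue. No time after transfection and no siRNA sequence is stated. The labels are also silent on a control siRNA in the WT cells and on whether the 3 libraries of a group are separate cultures. The p-values below therefore measure the spread between these libraries, which may be technical.

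Each ribosome carries a single copy of most of these proteins, so cells make them in matched amounts, and surplus protein is degraded. Their mRNAs are among the most abundant in growing cells. Transcription of most of them starts at a C followed by a run of pyrimidines, the terminal oligopyrimidine (TOP) tract, through which mTORC1 and the RNA-binding protein LARP1 set how well they are translated. Several of the genes carry small nucleolar RNAs in their introns, and several limit their own output through alternative splicing and decay of the resulting transcript. SRSF2 is a serine and arginine rich protein that binds exons and promotes their inclusion.

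The sequences at the transcription start are shown for 12 of the genes because the pyrimidine tract is what the family shares and because genes that rose and genes that fell both carry it. Each line holds 30 bases read in the direction of transcription, the 16th base being the start annotated by RefSeq on GRCh38.p14. Capitals mark the longest run of a C followed by at least 4 pyrimidines that begins within 20 bases of that start, as far as the printed bases reach. Shorter runs of this kind, as in RPS18 and RPS13, are left in lower case. Of the 12 genes, RPL3, RPLP0, RPL7A, RPL4 and RPS18 were higher in siSRSF2 cells, RPS13, RPL6, RPS15, RPL35, RPL24 and RPL18 were lower, and RPL15 was not called.
RPL3: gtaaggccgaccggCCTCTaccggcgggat
RPLP0: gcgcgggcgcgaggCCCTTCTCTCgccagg
RPL7A: ccacaattCCCTTTCCTTTCTCTCTCCTCC
RPL4: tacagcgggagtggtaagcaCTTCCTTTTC
RPS18: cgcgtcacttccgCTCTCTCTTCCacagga
RPS13: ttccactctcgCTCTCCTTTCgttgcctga
RPL6: ggggagacggcgcgtgcactgtgttcctgg
RPS15: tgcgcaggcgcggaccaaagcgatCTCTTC
RPL35: agccccgcctaCTTCCTCTTTCCCTCggag
RPL24: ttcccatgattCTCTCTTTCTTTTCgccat
RPL18: accccagcccgttCTCTCTTTCCggacctg
RPL15: ggcgctggggcctgctggaggagcttcacg

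The window of RPL3, the gene that rose most, lies at chr22:39319609-39319638 on the minus strand. The window of RPS13, the gene that fell most, lies at chr11:17077653-17077682, also on the minus strand. The tract was found in 35 of the 39 ribosomal protein genes with an entry in the RefSeq promoter table (89.7%), against 13876 of all 27305 promoters in it (50.8%). With the tract within 10 bases of the start the figures were 34 of 39 (87.2%) and 33.3%. A C followed by a pyrimidine stood exactly at the annotated start in 28 of 39 (71.8%), against 10.7% of all promoters. All 5 genes with an entry that were higher in siSRSF2 cells held the tract within 20 bases, as did 11 of the 12 that were lower and 19 of the 22 that were not called. RPL6, RPL13, RPL15 and RPS4X lacked these letters in this window. Because nearly all of the 39 genes held the tract, these counts cannot show whether having it goes with direction.

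The libraries held 26610937, 36651623 and 32647728 counts in siSRSF2 cells and 49849185, 47518943 and 50021152 in WT cells. SRSF2 itself, the target of the siRNA, stood at 21.6, 21.8 and 24.9 CPM (counts scaled to 1000000 per library) in siSRSF2 cells, against 44.5, 46.4 and 44.1 CPM in WT cells. Its log2 fold change, siSRSF2 over WT, was -0.98 (SE 0.06, edgeR adjusted p = 4.39e-13). CPM values are scaled by TMM, which sets the library sizes so that most genes' log ratios centre on 0. The summed level of 6 epithelial markers was 3680 to 3950 CPM in siSRSF2 cells and 4130 to 4540 CPM in WT cells, nearly all of it the keratins KRT8 and KRT18. Of the 6, KRT8 was lower (log2 -0.22, edgeR adjusted p = 0.00018) and CLDN4 was higher (log2 1.79, edgeR adjusted p = 4.85e-09), while EPCAM, KRT18, KRT19 and CDH1 were not called. With library totals none of the 6 was lower. The cadherin CDH1 averaged 0.276 CPM in siSRSF2 cells and 0.219 CPM in WT cells. The sum of 8 fibroblast and endothelial markers was 43.9 to 49.2 CPM in siSRSF2 cells and 23.0 to 23.2 CPM in WT cells. Most of it was the collagen COL1A1, which averaged 35.6 CPM in siSRSF2 cells and 16.0 CPM in WT cells. Of the 7 tested, 4 were higher (COL1A1, DCN, LUM and PDGFRB). The endothelial markers PECAM1 and CDH5 were lower (log2 -2.03 and -1.21, edgeR adjusted p = 0.000309 and 0.000124). None of these markers was at 0 in all libraries, and the part of these sums in the results was not tested.

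The ribosomal protein genes moved little and in both directions. Of the 47, 7 were higher in siSRSF2 cells (14.9%) and 15 were lower (31.9%), at an edgeR quasi-likelihood adjusted p under 0.05, while 25 were not called, which at changes this small does not show that they did not change. In bulk RNA, a change in the share of cells that express a gene and a change in its RNA per cell cannot be told apart. Among all 23689 genes tested, 30.1% were higher, 29.0% were lower and 59.1% were called in either direction. Called ribosomal protein genes (46.8%) were thus a smaller share than in the table as a whole. They were also a smaller share than among the 9159 tested genes with a mean of at least 10 CPM, of which 79.9% were called, 29.2% higher and 50.7% lower. All 47 passed the filter on low counts, with mean levels of 10.7 to 2271 CPM.

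Sizes were small. The log2 fold changes of the 47 lay between -0.58 and 0.47, with a median of -0.07 and an SD of 0.19. All tested genes had a median of 0.02 and an SD of 0.92, and those with a mean of at least 10 CPM a median of -0.16 and an SD of 0.68. A change of more than 1.2-fold was measured in 7 of the 47 genes (14.9%), against 70.5% of all tested genes, and none of the 47 changed 2-fold. When a change beyond 1.2-fold was itself tested, 2 of the 47 passed (4.26%), against 44.4% of all tested genes. These were RPL3, which was higher (edgeR adjusted p = 3.13e-05), and RPS13, which was lower (edgeR adjusted p = 6e-05). The siSRSF2 and WT libraries did not overlap in 23 of the 47 genes (48.9%), against 63.8% of all tested genes.

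**Figure D1:**
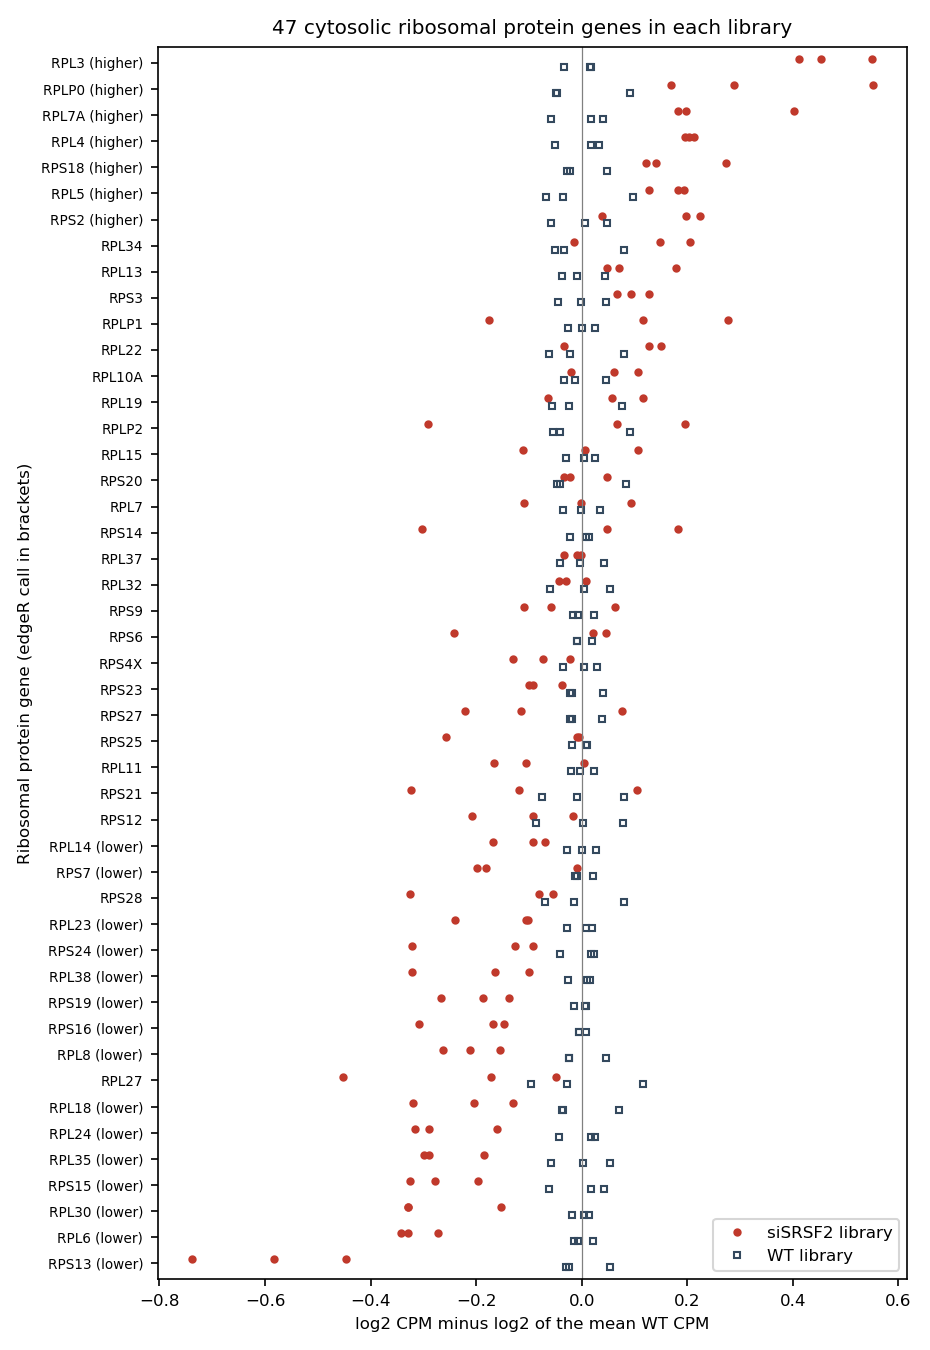
Level of each of the 47 genes in each library, as log2 CPM minus the log2 of the mean WT CPM (horizontal axis), with genes down the page from the highest to the lowest log2 fold change. Filled circles are the 3 siSRSF2 libraries and open squares the 3 WT libraries, each point 1 library; RPL3 stands apart at the top and RPS13 at the bottom, and most points lie within 0.3 of the WT mean.

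Because the changes were small, their direction depended on how libraries were scaled. Scaling by library totals moved the median log2 fold change of all tested genes by 0.13, to 0.15, and that of the 47 genes to 0.06. With that scaling 18 of the 47 were higher (38.3%) and 6 lower (12.8%), against 36.1% and 23.2% of all tested genes. The log2 fold change of each of the 47 moved by about that shift. Keeping only genes with a mean of at least 1 CPM gave 11 higher, and removing the filter gave 4 higher and 24 lower. Leaving out siSRSF2 replicate 3 gave 11 higher. A set of 10 genes kept a call in the same direction in 7 fits, namely edgeR with TMM, with RLE factors, with library totals, without a filter and with a mean of at least 1 CPM, DESeq2, and limma voom. RPL3, RPLP0, RPL7A and RPL4 were higher in these fits, and RPS13, RPL6, RPL30, RPS15, RPL35 and RPL24 were lower. Tested against a 1.2-fold change, 8 of the 10 were not called.

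**Figure D2:**
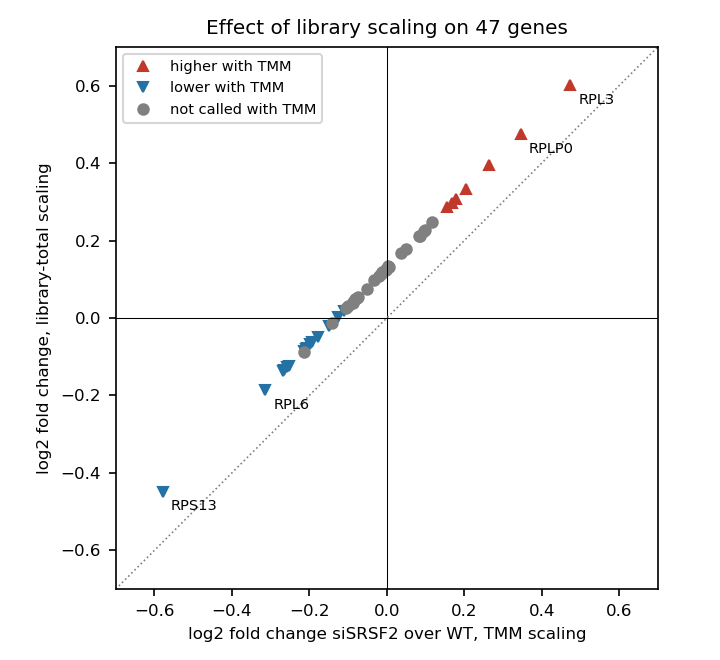
Log2 fold change of the 47 genes, siSRSF2 over WT, with TMM scaling (horizontal axis) and with scaling by library totals (vertical axis); the dotted line marks equal values. Triangles pointing up were higher and triangles pointing down lower with TMM, circles were not called, and all points lie above the line, by about the shift of 0.13 seen over all tested genes.

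Of the 7 genes that rose, 5 belonged to the large subunit. RPL3, a protein close to the site where peptide bonds form, had 910, 974 and 885 CPM in siSRSF2 cells, against 649, 672 and 673 CPM in WT cells. Every siSRSF2 library was above every WT library, with a fold of 1.39 (log2 0.47, SE 0.05, edgeR adjusted p = 8.23e-10). RPLP0, the scaffold of the stalk that recruits elongation factors, had 1153, 1385 and 1062 CPM in siSRSF2 cells, against 913, 915 and 1006 CPM in WT cells. The groups did not overlap, but siSRSF2 replicate 2 was far above the other siSRSF2 libraries and the error was correspondingly wide (log2 0.35, SE 0.10, edgeR adjusted p = 0.019). Without siSRSF2 replicate 1 the call of RPLP0 was lost (log2 0.38, edgeR adjusted p = 0.109).

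RPL7A, a large-subunit protein whose introns hold several small nucleolar RNAs, had 1255, 1269 and 1461 CPM in siSRSF2 cells, against 1062, 1137 and 1119 CPM in WT cells. RPL4, which lines the exit tunnel of the nascent chain, had 1751, 1772 and 1760 CPM in siSRSF2 cells, against 1476, 1547 and 1564 CPM in WT cells. RPS18, in the head of the small subunit, had 365, 328 and 332 CPM in siSRSF2 cells, against 296, 312 and 297 CPM in WT cells. All siSRSF2 libraries were above all WT libraries for each of the 3 genes. Their log2 fold changes were 0.26, 0.20 and 0.18, with edgeR adjusted p of 0.00012, 0.000179 and 0.00173. RPS2, which lies near the entry of the mRNA channel, was also called higher (log2 0.16, edgeR adjusted p = 0.00779), although its lowest siSRSF2 value, 666 CPM, was under its highest WT value, 671 CPM. Of the exon bases counted for RPS2, 25.6% are shared on the same strand with other entries, but no base of its principal mRNA is.

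**Figure D3:**
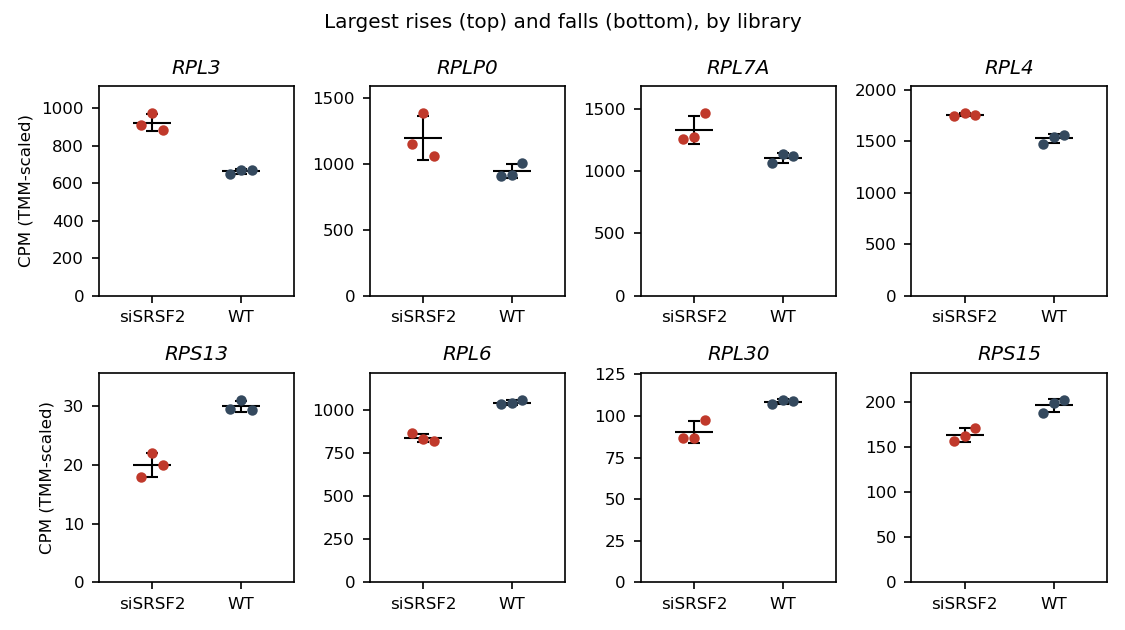
CPM of the 4 genes with the largest called rises (top row) and the 4 with the largest called falls (bottom row), with siSRSF2 left and WT right in each panel; points are libraries, and the lines give the mean and SD (n = 3 each). In all 8 panels the groups do not overlap, and the vertical axes start at 0 and differ between panels.

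The largest fall was that of RPS13, a small-subunit protein whose human form binds its own pre-mRNA and represses its splicing. RPS13 had 18, 22 and 20 CPM in siSRSF2 cells, against 29, 31 and 29 CPM in WT cells. The groups lay far apart (log2 -0.58, SE 0.07, edgeR adjusted p = 9.27e-08). It was also among the genes with the fewest reads, with 488 to 847 counts in siSRSF2 libraries and 1392 to 1420 in WT libraries. Of the exon bases counted for RPS13, 6.77% are shared on the same strand with PIK3C2A and SNORD14B, so part of its reads cannot be assigned to it alone.

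RPL6, a large-subunit protein, had 865, 832 and 824 CPM in siSRSF2 cells, against 1034, 1040 and 1060 CPM in WT cells (log2 -0.31, SE 0.04, edgeR adjusted p = 3.97e-07). RPL30, which in yeast blocks the splicing of its own transcript, had 86.5, 86.5 and 97.7 CPM in siSRSF2 cells, against 107, 110 and 109 CPM in WT cells. RPS15, needed for late steps of small-subunit assembly, had 157, 162 and 171 CPM in siSRSF2 cells, against 188, 199 and 202 CPM in WT cells. In each of these 3 genes the highest siSRSF2 library was below the lowest WT library. RPL30 and RPS15 both had a log2 fold change of -0.27, with edgeR adjusted p of 5.48e-05 and 2.06e-05. The exons of RPL30 share 21.6% of their bases with an entry on the opposite strand. For the bases of its principal mRNA alone the share is 47.15%. No source used here says whether reads were counted by strand.

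RPL35, near the tunnel exit, had 683, 679 and 734 CPM in siSRSF2 cells, against 802, 836 and 867 CPM in WT cells. RPL24, which forms a bridge between the subunits, had 383, 390 and 427 CPM in siSRSF2 cells, against 463, 485 and 483 CPM in WT cells. Neither gene's groups overlapped, and the log2 fold changes were -0.26 and -0.25 (edgeR adjusted p = 2.37e-05 and 3.61e-05). RPL18 had 29.3, 30.9 and 27.1 CPM in siSRSF2 cells, against 33.0, 35.5 and 32.9 CPM in WT cells. Other entries overlap 26.4% of the RPL18 mRNA bases on the same strand and 24.5% on the opposite strand. RPL8, which contacts the peptidyl transferase centre, had 368, 355 and 383 CPM in siSRSF2 cells, against 419, 440 and 419 CPM in WT cells. Both were lower without overlap (log2 -0.21 each, edgeR adjusted p = 0.00514 for RPL18 and 0.000206 for RPL8). With scaling by library totals neither call held (log2 -0.09, edgeR adjusted p = 0.275 for RPL18; log2 -0.08, edgeR adjusted p = 0.118 for RPL8).

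The other 7 genes called lower were RPS16, RPS19, RPL38, RPS24, RPL23, RPS7 and RPL14, with log2 fold changes from -0.21 in RPS16 to -0.11 in RPL14. Of the RPL38 mRNA bases, 57.8% are shared with an entry on the opposite strand. In RPS7 the groups overlapped, its highest siSRSF2 value being 348 CPM and its lowest WT value 347 CPM. With scaling by library totals none of the 7 was called, and the log2 fold changes of RPS7 and RPL14 were 0.00 and 0.02. RPS19 and RPS24, like RPS7, RPL5 and RPL11, are mutated in Diamond-Blackfan anaemia. Of these 5 genes 1 was higher and 3 were lower with TMM. With library totals 1 was higher and none lower, against 36.1% and 23.2% of all tested genes. With TMM 60% of the 5 were thus lower, against 50.7% of tested genes with a mean of at least 10 CPM. RPS19 had 131, 127 and 120 CPM in siSRSF2 cells, against 145, 143 and 145 CPM in WT cells.

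Partner proteins of the same substructure did not all give the same call. RPL5 and RPL11 join the ribosome as a complex with the smallest large-subunit rRNA, and when free they bind MDM2, the ubiquitin ligase of p53. RPL5 had 2336, 2445 and 2427 CPM in siSRSF2 cells, against 2041, 2086 and 2286 CPM in WT cells. RPL11 had 498, 443 and 462 CPM in siSRSF2 cells, against 505, 496 and 490 CPM in WT cells. The RPL5 libraries did not overlap, while one RPL11 library of siSRSF2 cells fell within the WT range. RPL5 was called higher (log2 0.17, edgeR adjusted p = 0.00299) and RPL11 was not called (log2 -0.09, edgeR adjusted p = 0.106). Without WT replicate 1 the RPL5 call was lost (edgeR adjusted p = 0.0568). The difference between the 2 genes' responses was not tested.

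RPLP1 and RPLP2, which pair and dock on RPLP0 to form the flexible stalk, were not called. RPLP1 had 626, 700 and 511 CPM in siSRSF2 cells, against 577, 587 and 567 CPM in WT cells (log2 0.09, SE 0.11, edgeR adjusted p = 0.568). RPLP2 had 977, 1068 and 763 CPM in siSRSF2 cells, against 898, 907 and 994 CPM in WT cells (log2 0.01, SE 0.14, edgeR adjusted p = 0.981). In all 3 stalk genes siSRSF2 replicate 2 was the highest of its group and replicate 3 the lowest. Without siSRSF2 replicate 3 RPLP1 was called higher (log2 0.19, edgeR adjusted p = 0.00094), as was RPLP2 (log2 0.13, edgeR adjusted p = 0.0315).

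The siSRSF2 libraries differed more among themselves than the WT libraries did. The SD of log2 CPM within a group, as a median over the 47 genes, was 0.09 in siSRSF2 and 0.04 in WT, and it was larger in siSRSF2 for 40 of the 47. Over all tested genes with a mean of at least 10 CPM the medians were 0.08 and 0.05. RPS14, a small-subunit protein of the platform, illustrates this: it had 524, 411 and 575 CPM in siSRSF2 cells, against 510, 512 and 500 CPM in WT cells, and its log2 fold change of -0.01 had an SE of 0.13. RPL27, another large-subunit gene, had 576, 529 and 435 CPM in siSRSF2 cells, against 585, 557 and 646 CPM in WT cells. Its log2 fold change of -0.22 was as large as that of RPL18, but its groups overlapped and it was not called (edgeR adjusted p = 0.169).

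Because SRSF2 is a splicing factor, 6 genes known to regulate their own transcript through splicing, in human cells or in other species, were looked at as a list. Of these 6, RPL3 was higher and RPS13 and RPL30 were lower, as given above. RPL10A had 124, 118 and 128 CPM in siSRSF2 cells, against 116, 118 and 123 CPM in WT cells. RPS3, at the mRNA entry, had 575, 589 and 565 CPM in siSRSF2 cells, against 538, 522 and 557 CPM in WT cells. RPS9 had 127, 123 and 139 CPM in siSRSF2 cells, against 132, 131 and 135 CPM in WT cells. RPS3 was separated between the groups and the other pair overlapped, but none of the 3 was called (log2 0.05, 0.10 and -0.03, edgeR adjusted p = 0.387, 0.0578 and 0.593). Thus 3 of the 6 were called, against 59.1% of all tested genes and 79.9% of those with a mean of at least 10 CPM. Counts per gene hold all isoforms together and say nothing of which isoform changed.

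Closest to no change were RPS20, RPL7 and RPL15. RPS20 had 88.6, 89.2 and 93.6 CPM in siSRSF2 cells, against 87.8, 96.0 and 88.1 CPM in WT cells. RPL7 had 477, 415 and 446 CPM in siSRSF2 cells, against 458, 447 and 436 CPM in WT cells. RPL15, whose window shows no tract, had 281, 326 and 304 CPM in siSRSF2 cells, against 297, 304 and 308 CPM in WT cells. The groups of all 3 overlapped and the log2 fold changes were 0.00 in each, with SE of 0.05. Relative to library totals the 3 were called higher, with log2 fold changes of 0.13, 0.13 and 0.13, which is the shift of all tested genes. The remaining genes not called were RPL13, RPL19, RPL22, RPL32, RPL34, RPL37, RPS4X, RPS6, RPS12, RPS21, RPS23, RPS25, RPS27 and RPS28, with log2 fold changes from -0.14 in RPS28 to 0.12 in RPL34.

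By subunit, 5 of the 27 large-subunit genes were higher (18.5%) and 9 lower (33.3%), with a median log2 fold change of 0.00. Of the 20 small-subunit genes 2 were higher (10%) and 6 lower (30%), with a median of -0.09. All tested genes were higher in 30.1% and lower in 29.0%, and those with a mean of at least 10 CPM in 29.2% and 50.7%. With library totals the counts were 14 higher and 4 lower in the large subunit, and 4 higher and 2 lower in the small subunit. The shares of all tested genes were then 36.1% and 23.2%. The difference between the subunits was not tested. Of the 16 genes with the longest coding sequence, 612 to 1281 bases, 6 were higher and 3 lower. Of the 16 shortest, 207 to 405 bases, none was higher and 4 were lower. Of the 15 between, 408 to 588 bases, 1 was higher and 8 were lower. Beside these counts stand the same 29.2% higher and 50.7% lower among tested genes with a mean of at least 10 CPM. The median log2 fold changes of the shortest, middle and longest genes were -0.09, -0.15 and 0.07, so they do not follow length step by step. Across the 47 genes the log2 fold change followed coding length with a Spearman rho of 0.36 and the mean level with a rho of 0.43, as a description over genes that share libraries. Over 31 further cytosolic ribosomal protein genes the values were 0.14 for length and 0.44 for level.

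Together the 47 genes took 2.71%, 2.83% and 2.80% of all counts in siSRSF2 cells, against 2.44%, 2.50% and 2.54% in WT cells. Every siSRSF2 share was above every WT share. These are shares of library totals, and they follow the scaling by totals, under which more genes were higher than lower.

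Levels between genes were compared per kilobase of coding sequence, since the counted exons of an entry were 1.94 to 28.0 times as long as its coding sequence. Counts also cover untranslated bases, so genes with long untranslated ends stand higher on this scale. The principal mRNA of RPL22 has 2078 bases, of which 384 are coding, and that of RPL19 has 737 and 588. RPL22, an RNA-binding protein of the large subunit, was highest with 5120, 5039 and 4508 CPM per coding kilobase in siSRSF2 cells, against 4542, 4422 and 4875 in WT cells. RPL19, which reaches across to the small subunit, followed with 3046, 3313 and 3449 in siSRSF2 cells, against 3063, 3133 and 3355 in WT cells. RPLP2 came next with 2833, 3096 and 2210 in siSRSF2 cells, against 2603, 2629 and 2881 in WT cells. In none of these 3 did the groups separate.

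At the low end, RPS28 had 43.6, 51.6 and 52.6 CPM per coding kilobase in siSRSF2 cells, against 57.7, 52.0 and 54.1 in WT cells. RPL18 had 52.0, 54.8 and 48.0 in siSRSF2 cells, against 58.5, 62.9 and 58.4 in WT cells. RPS13 had 39.7, 48.5 and 44.2 in siSRSF2 cells, against 65.1, 68.6 and 64.8 in WT cells. RPS13 was thus the lowest by its siSRSF2 mean and above both others by its WT mean. The mean of RPL22 was 91.5 times that of RPS28. With the length of all counted exons instead, RPL19 was first and RPL22 7th, while RPL18, RPS13 and RPS28 remained the lowest 3. All 3 share mRNA bases with other entries. On the same strand the share was 26.4% for RPL18 and 8.98% for RPS13. On the opposite strand it was 24.5% for RPL18 and 27.5% for RPS28. The effect of these overlaps on the levels was not tested.

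**Figure D4:**
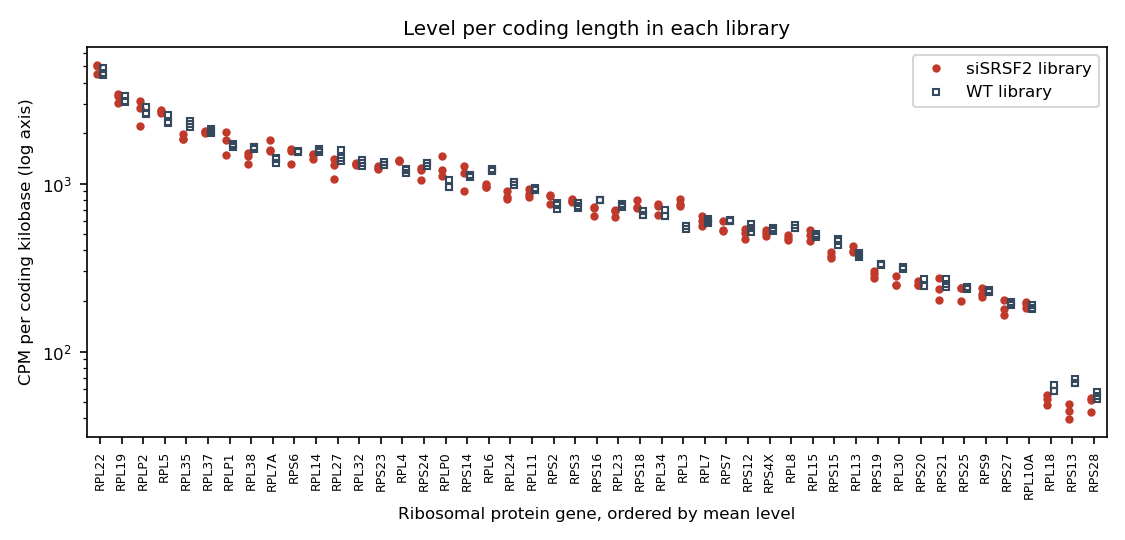
CPM per kilobase of coding sequence on a log axis for the 47 genes, ordered by their mean over the libraries. Filled circles are siSRSF2 libraries and open squares WT libraries; the levels span 91.5-fold between RPL22 and RPS28, and differences between genes are far larger than those between groups.

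Ribosomal protein genes have many near-identical pseudogenes, and reads can be split between copies. The table held 431 entries named as pseudogenes of the 47 genes. They took 1.93%, 1.68% and 2.22% of the counts of genes and pseudogenes together in siSRSF2 cells, against 1.87%, 1.88% and 1.76% in WT cells. For RPL7, RPL13, RPL15, RPL32, RPS2, RPS20 and RPS28 the share exceeded 5%, reaching 13.2% for RPL7 in siSRSF2 cells, so the values of these 7 are less certain by this measure. Reads left uncounted because they match several copies would show in neither entry, and how such reads were handled is not given. A low share therefore does not make the values of the other genes certain. Adding the pseudogene counts to the genes again gave 7 higher and 15 lower.

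The annotation places 31 small nucleolar RNAs, which guide the modification of rRNA, within 15 of the genes, and 29 of them had an entry in the table of counts. Of the 27 that could be tested, 1 was higher (SNORA72 in RPL30) and 6 were lower (22.2%), fewer than the 29.0% of all tested genes. The clearest was SNORD101 in RPS12, a small-subunit gene, with 8.60 ± 0.20 CPM in siSRSF2 cells and 16.2 ± 1.0 CPM in WT cells (SD, n = 3 each). The groups of SNORD101 were well apart (log2 -0.91, edgeR adjusted p = 8.82e-10), while RPS12 itself was not called (log2 -0.10, edgeR adjusted p = 0.0886). SNORD83A in RPL3 was lower (log2 -1.07, edgeR adjusted p = 0.000658), while RPL3 was higher. Most of the 27 had few counts, and 22 lay below the log2 fold change of their host. With library totals 1 was higher and 3 were lower, against 36.1% and 23.2% of all tested genes. The libraries were made with an mRNA kit. Whether reads in these entries come from the mature small nucleolar RNA or from unspliced host RNA was not tested. Some entries also overlap counted exons of their host, as in RPL7A, where 12.7% of exon bases are shared in this way. Of the 15 host genes 5 were higher (33.3%) and 3 lower (20%), and of the 32 others 2 were higher (6.25%) and 12 lower (37.5%). Among all tested genes 30.1% were higher and 29.0% lower, and among those with a mean of at least 10 CPM 29.2% and 50.7%. The difference between hosts and the others was not tested. With library totals the counts were 10 and 2 among hosts and 8 and 4 among the others, against 36.1% and 23.2% of all tested genes.

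The 31 further cytosolic ribosomal protein genes of the table had a median log2 fold change of -0.08, with 5 higher (16.1%) and 12 lower (38.7%). Tested genes with a mean of at least 10 CPM were higher in 29.2% and lower in 50.7%. The log2 fold changes of the 31 spread more widely than those of the 47, from -0.93 to 0.67 with an SD of 0.27. RPL13A and RPS26 moved further than any of the 47. RPL13A, which also acts in translational silencing after interferon gamma, had 866, 860 and 819 CPM in siSRSF2 cells, against 521, 532 and 551 CPM in WT cells (log2 0.67, edgeR adjusted p = 5.45e-13). RPS26, which contacts mRNA upstream of the start codon, had 25.1, 23.9 and 24.3 CPM in siSRSF2 cells, against 45.4, 51.3 and 42.5 CPM in WT cells (log2 -0.93, edgeR adjusted p = 3.7e-12). With library totals 7 of the 31 were higher and 7 lower, against 36.1% and 23.2% of all tested genes.

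Genes that work around the ribosomal proteins moved further. Of 12 chaperones and importers of ribosomal proteins, 10 were lower (83.3%) and none higher, with a median log2 fold change of -0.92. Among tested genes with a mean of at least 10 CPM, 50.7% were lower. The importers, KPNB1 and TNPO1 among them, also carry many other proteins. GRWD1, the chaperone of RPL3, had 42.1, 42.3 and 40.0 CPM in siSRSF2 cells, against 136, 134 and 137 CPM in WT cells (log2 -1.71, edgeR adjusted p = 3.67e-20). LTV1, a small-subunit assembly factor, had 100, 92.2 and 95.7 CPM in siSRSF2 cells, against 290, 283 and 281 CPM in WT cells (log2 -1.57, edgeR adjusted p = 6.29e-20). With library totals 10 were again lower, while 2, the importers IPO5 and IPO7, were higher. Of all tested genes 23.2% were then lower and 36.1% higher.

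Among 8 paralogs of ribosomal protein genes 6 were tested, of which 4 were lower (66.7%) and none higher. Lower genes were 29.0% of all tested genes and 50.7% of those with a mean of at least 10 CPM. RPL7L1 had 61.2, 68.1 and 67.6 CPM in siSRSF2 cells, against 125, 126 and 131 CPM in WT cells (log2 -0.95, edgeR adjusted p = 5.79e-15). RPL26L1 averaged 42.2 ± 3.9 CPM in siSRSF2 cells and 75.4 ± 3.0 CPM in WT cells (SD, n = 3 each; log2 -0.84, edgeR adjusted p = 3.94e-12). With library totals 3 were lower and 2, RPL39L and RPS27L, were higher, against 23.2% and 36.1% of all tested genes.

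Of 18 translation factors and other genes whose mRNAs also begin with a TOP tract, 8 were higher (44.4%) and 6 lower (33.3%), with a median of -0.01. The shares among tested genes with a mean of at least 10 CPM were 29.2% and 50.7%. EIF4B, which stimulates the unwinding of mRNA at initiation, had 1904, 1849 and 1861 CPM in siSRSF2 cells, against 1257, 1270 and 1262 CPM in WT cells (log2 0.57, edgeR adjusted p = 5.84e-12). The histone chaperone gene NAP1L1 had 1578, 1482 and 1534 CPM in siSRSF2 cells, against 1210, 1211 and 1180 CPM in WT cells (log2 0.35, edgeR adjusted p = 7.79e-08). With library totals 9 were higher and 3 lower, against 36.1% and 23.2% of all tested genes.

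Of 11 genes of the MYC and mTORC1 pathways that control ribosomal protein output, 3 were higher (27.3%) and 7 lower (63.6%). The shares among tested genes with a mean of at least 10 CPM were 29.2% and 50.7%, and the difference was not tested. LARP1, which binds TOP mRNAs, had 345, 336 and 349 CPM in siSRSF2 cells, against 628, 645 and 644 CPM in WT cells (log2 -0.90, edgeR adjusted p = 7.51e-16). DDIT4, a stress-induced inhibitor of mTORC1, had 671, 691 and 636 CPM in siSRSF2 cells, against 220, 213 and 238 CPM in WT cells (log2 1.58, edgeR adjusted p = 1.67e-19). The other genes called higher were TSC1 and TSC2, which form a complex that restrains mTORC1. The others called lower were EIF4EBP1 (log2 -0.64), a repressor of translation that mTORC1 restrains, MYC (log2 -0.62), RHEB (log2 -0.54), RPTOR (log2 -0.48), RPS6KB1 (log2 -0.48) and MTOR (log2 -0.20). With library totals 3 were higher and 6 lower, against 36.1% and 23.2% of all tested genes.

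**Figure D5:**
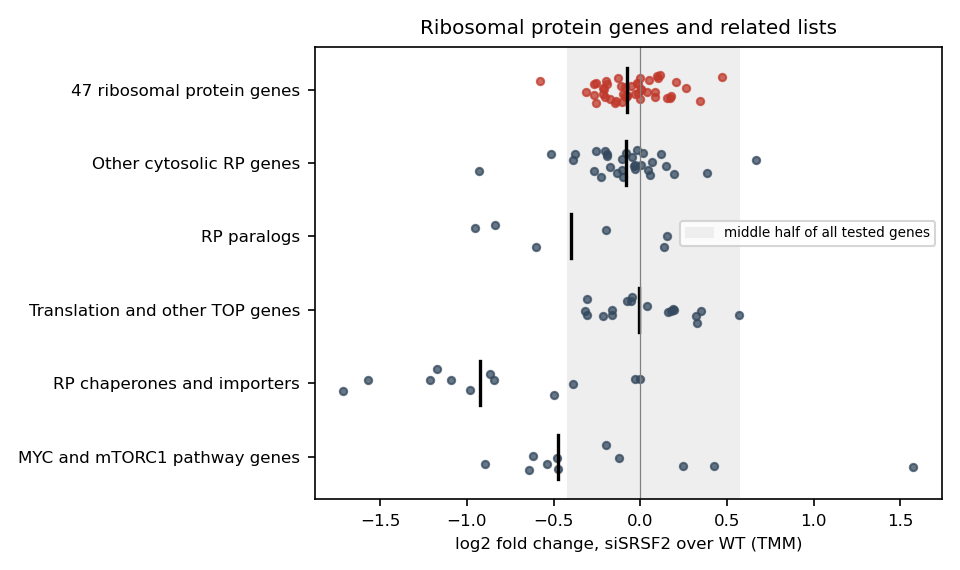
Log2 fold change, siSRSF2 over WT with TMM scaling (horizontal axis), for the 47 genes and 5 related lists, 1 point per gene; black bars mark each list's median and the grey band holds the middle 50% of all tested genes, from -0.42 to 0.57. The 47 genes cluster near 0 with a median of -0.07, while chaperones and importers have a median of -0.92.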

How the data were processed

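Per the labels' protocols, RNA came from TRI Reagent extraction and a SMARTER mRNA-Seq kit was used for the libraries. The deposited values are raw counts of reads per gene, in 1 table for all 6 libraries. HISAT2 2.0.5 and featureCounts 1.5.0-p3 are named in the submitters' processing notes. These notes also name the mouse build mm10, but the table holds human genes, and 38 of the 47 have the same span as in GENCODE v29 on GRCh38. How strand and multi-mapping reads were handled is not given in the labels or notes.

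Counts were fitted over the whole table with edgeR 4.0.16 in R 4.3.3 (filterByExpr with a minimum count of 10, TMM, robust quasi-likelihood F test, group as the only term), and p-values were adjusted by Benjamini-Hochberg over the 23689 genes tested, with a threshold of 0.05. The script was tested on simulated data, where it recovered few planted 1.2-fold changes and most planted changes of 2-fold and more. The pass mark of that test was lowered once after its first result. DESeq2 1.42.0, limma 3.58.1 (voom), other scalings and filters, a replicate block, a test against 1.2-fold, summed pseudogenes and leaving out each library were alternatives. Members and lists were chosen with earlier results of these data known. Every library's value is given for the 8 largest called rises and falls without overlap (6 rises met this), the 3 highest and lowest per coding kilobase, the 3 nearest 0 and the stalk, RPL5 and RPL11, and autoregulation lists; from other lists the 2 with the smallest p are named. RPS2, RPS14, RPS19, RPL27, RPS7, CLDN4, EPCAM, KRT8, KRT18, KRT19, CDH1, COL1A1, DCN, LUM, PDGFRB, PECAM1, CDH5, EIF4EBP1, MYC, RHEB, RPTOR, RPS6KB1, MTOR, TSC1, TSC2, IPO5, IPO7, KPNB1, TNPO1, RPL39L, RPS27L and the small nucleolar RNAs were named after their values were seen. Start-site sequences are from RefSeq (GRCh38.p14). Coding lengths are those of APPRIS principal isoforms in GENCODE v29. Library totals limit precision for RPS28, RPS13 and the small nucleolar RNAs most.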

Additional observations from a re-analysis of the deposited data

How the results depend on the processing

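RPL3 and RPS13 kept direction and call in all 16 alternatives, with log2 fold changes of 0.40 to 0.60 and -0.66 to -0.45. The count of called genes, 22, was 2 when a change beyond 1.2-fold was tested and 19 to 32 when single libraries were left out. The count higher, 7, was 18 with library totals, 4 without a filter, 11 with a mean of at least 1 CPM, 1 against 1.2-fold and 5 to 11 with single libraries left out, 11 being without siSRSF2 replicate 3. The count lower, 15, was 6 with library totals, 24 without a filter, 1 against 1.2-fold and 13 to 21 with single libraries left out. The median log2 fold change, -0.07, was 0.055 with library totals, -0.149 without a filter, -0.023 with a mean of at least 1 CPM and -0.10 to -0.05 with single libraries left out. The share of counts was 2.86% in siSRSF2 cells and 2.58% in WT cells without mitochondrially encoded genes. Beyond the scalings themselves, the cause of these differences was not tested.

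Genes near 0 changed sign. With library totals RPS20 and RPL7 were at 0.13, RPL11 at 0.04 and RPS9 at 0.10, and with a mean of at least 1 CPM RPS20, RPL7 and RPS9 were at 0.049, 0.047 and 0.018. Without a filter RPL19, RPLP2, RPL15 and RPL10A were at -0.037, -0.071, -0.071 and -0.026. RPLP2 was at -0.004 with DESeq2 and RLE factors and at -0.008 with limma voom, and RPL15 at -0.006 with DESeq2 and RLE. With pseudogenes summed in, RPS20, RPL7 and RPL15 were at 0.00, 0.015 and -0.003. Leaving out single libraries gave RPL19 -0.008 to 0.093, RPLP2 -0.11 to 0.13, RPS20 -0.034 to 0.034, RPL7 -0.049 to 0.041, RPL15 -0.056 to 0.064, RPLP1 -0.028 to 0.19 and RPS9 -0.09 to 0.001.

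The replicate numbers share only a number: same-numbered libraries' deviations correlated at 0.013, -0.047 and -0.046, and not every library correlated best with its own number. With the replicate block 23 genes were called, 8 higher and 15 lower, and RPLP2 was at -0.007. Intervals and tests cover the 3 libraries of each group only, and depth limits RPS28, RPS13 and the small nucleolar RNAs most.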
